A study of Mus musculus with 16 samples.

Results

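The difference in gene expression between Kir2.1 and control cells that was shared by postnatal day 3 (P3) and postnatal day 6 (P6) was read from mitral cells of the mouse olfactory bulb. It was taken as the mean of the Kir2.1 minus control difference at P3 and the same difference at P6, and all 16 arrays of the series entered it, 8 from each age. Per the labels, all cells came from ICR mice that were electroporated in utero at embryonic day 12 (E12). Control cells received pCAG-EYFP, a plasmid that drives a yellow fluorescent protein from the broadly active CAG promoter, and Kir2.1 cells received pCAG-EYFP with pCAG-Kir2.1. Each of the 4 groups (P3 control, P3 Kir2.1, P6 control and P6 Kir2.1) held 4 arrays. The cDNA of 10 fluorescent cells, picked by hand, was pooled for an array, and these cells had tested positive for EYFP and pcdh21 (Cdhr1) by PCR. Pools are described as biological replicates in the labels, which do not tie them to animals, so a p-value reflects the variation from pool to pool, some of which can be technical. Because these were pools of picked cells, fewer cells of a type and less RNA per cell cannot be told apart in any value below. The 12035 named genes tested gave 85 past an adjusted p of 0.05 in the mean of both ages, and 37 of these also moved in the same direction with no overlap between the groups at either age.

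Mitral cells are the projection neurons of the olfactory bulb. In the first postnatal week they prune their early dendrites until most keep a single primary dendrite in one glomerulus. Kir2.1 is an inwardly rectifying potassium channel that holds the membrane near the potassium equilibrium potential, so neurons that carry it fire less. Genes that follow neuronal activity include transcription factors that respond within minutes and later genes for secreted peptides, adhesion molecules and synaptic proteins.

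The promoters of 4 genes that passed in the mean with the same direction at both ages are shown to let their sequences be set beside their values. Each is the 250 bases before the annotated start in the RefSeq annotation of GRCm38.p6, 5′ to 3′ on the strand of the gene. Scg2 (chr1:79440027-79440276, minus strand) and Pik3cb (chr9:99140212-99140461, minus strand) were lower with Kir2.1, and Reln (chr5:22344706-22344955, minus strand) and Kcnip2 (chr19:45816064-45816313, minus strand) were higher.
Scg2: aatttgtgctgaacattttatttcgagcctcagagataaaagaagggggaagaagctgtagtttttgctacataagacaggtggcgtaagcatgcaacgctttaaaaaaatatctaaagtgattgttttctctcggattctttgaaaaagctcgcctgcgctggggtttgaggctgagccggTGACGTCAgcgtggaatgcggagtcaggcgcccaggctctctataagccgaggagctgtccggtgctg
Pik3cb: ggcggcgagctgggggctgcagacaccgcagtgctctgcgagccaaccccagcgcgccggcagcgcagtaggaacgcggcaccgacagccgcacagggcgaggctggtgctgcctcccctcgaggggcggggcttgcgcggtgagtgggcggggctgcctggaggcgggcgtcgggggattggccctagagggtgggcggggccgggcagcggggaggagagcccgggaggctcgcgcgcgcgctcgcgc
Reln: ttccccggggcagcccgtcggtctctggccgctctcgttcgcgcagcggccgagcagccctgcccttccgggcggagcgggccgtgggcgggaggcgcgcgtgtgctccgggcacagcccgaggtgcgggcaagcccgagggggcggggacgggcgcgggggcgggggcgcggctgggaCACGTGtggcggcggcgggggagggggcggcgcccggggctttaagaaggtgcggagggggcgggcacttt
Kcnip2: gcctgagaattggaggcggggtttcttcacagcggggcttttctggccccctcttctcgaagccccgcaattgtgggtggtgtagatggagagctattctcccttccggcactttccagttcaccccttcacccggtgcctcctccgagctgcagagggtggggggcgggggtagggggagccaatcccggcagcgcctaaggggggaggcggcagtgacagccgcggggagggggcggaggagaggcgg
The capitals mark matches, on either strand, to 1 of 4 motifs of factors tied to neuronal activity or growth: the cAMP response element TGACGTCA, the AP-1 site TGANTCA, the E-box CACGTG and the EGR site GCGTGGGCG. The match in Scg2 is a cAMP response element that ends 60 bases before the start, and the match in Reln is an E-box that ends 65 bases before it. No matches overlapped in these promoters. Pik3cb and Kcnip2 hold none of these letters in this window. Of the 37 genes that did not overlap at both ages, 28 had a promoter in the table. The cAMP response element was in 1 of the 28 (3.57%) and in 289 of 9612 tested genes with a promoter (3.01%). The AP-1 site was in 3 of the 28 (Hdac9, Senp7 and Zfp672) and in 5.44% of all. The E-box was in 2 of the 28 (7.14%; Reln and Pdcd6ip) and in 9.93% of all. The EGR site was in 0 of the 28 and in 1.14% of all. A match is a description of letters and not of binding.

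On an array, 34.3% to 41.1% of probes gave signal well above background, and 0 gene spots were saturated. A value is the log2 signal after subtraction of the array's 75th percentile, and a change is Kir2.1 minus control on that log2 scale with its standard error (SE) from limma. The root mean square SD between pools over all features was 1.18 for control and 1.33 for Kir2.1 pools at P3, and 1.51 for control and 1.52 for Kir2.1 pools at P6. Each age lay on a slide of its own, so the slide and the age cannot be told apart, and controls lay in row 1 and Kir2.1 pools in row 2 of each slide, so row and treatment cannot be told apart. Kcnj2, the mouse gene of Kir2.1, had a probe well above background on 0 of 16 arrays. It is not known to match the plasmid's Kir2.1 and so does not check the labels.

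In the mean of both ages 40 genes rose and 45 fell with Kir2.1. These were 0.706% of the named genes tested (0.332% higher and 0.374% lower), and 1549 genes had an unadjusted p under 0.05. Scg2, Pik3cb and Arhgap22 fell and Reln, Cacng4 and Rab39b rose by large fitted amounts without overlap at either age. In each of these 6 genes some pools of the dimmer group were not well above background, so the order of their sizes is not measured. Of the 85 genes, 83 had fitted changes of the same sign at P3 and P6, and 2 of opposite signs. Selection on the mean of both ages favours changes of the same sign, so this count does not measure sharing. The 37 genes without overlap at both ages, 19 higher and 18 lower, were 0.307% of those tested. The changes of the higher genes spanned 0.24 to 3.49 at P3, with a median of 1.15, and 0.90 to 4.19 at P6, with a median of 2.30. Those of the lower genes spanned -0.52 to -5.61 at P3 (median -1.49) and -0.87 to -5.21 at P6 (median -2.02). The change was larger at P6 in 70 of the 85 genes and in 29 of the 37. The share over all tested genes was not counted. The root mean square SD between pools was also larger at P6 (1.51 and 1.52) than at P3 (1.18 and 1.33), so these counts do not show a stronger effect at P6. Of the 37, 33 had an unadjusted limma p under 0.05 at both ages, which their selection by no overlap at each age makes likely. Of the same 37, 25 changed by at least 1 log2 unit at both ages, and 22 were well above background on all 16 arrays.

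Across all genes the changes at the 2 ages were only weakly correlated. Over all 12035 named genes the P3 and P6 changes, which have no array in common, correlated with Pearson's r of 0.07 and Spearman's rho of 0.06 across genes, which are not independent. The r was 0.09 over the 6460 genes well above background on every array and 0.07 over the other 5575. The direction was the same at both ages in 52.8% of genes. An unadjusted p under 0.05 at each age was reached by 229 genes, of which 143 (1.19% of those tested) moved the same way, 61 up and 82 down. The other 86 moved in opposite ways, 61 of them up at P3 and down at P6. The groups did not overlap at P3 in 5.89% of named genes and at P6 in 8.08%. At both ages in the same direction they did not overlap in 71 genes (0.59%), 34 higher and 37 lower, and in opposite directions in 50 (0.415%).

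**Figure D1:**
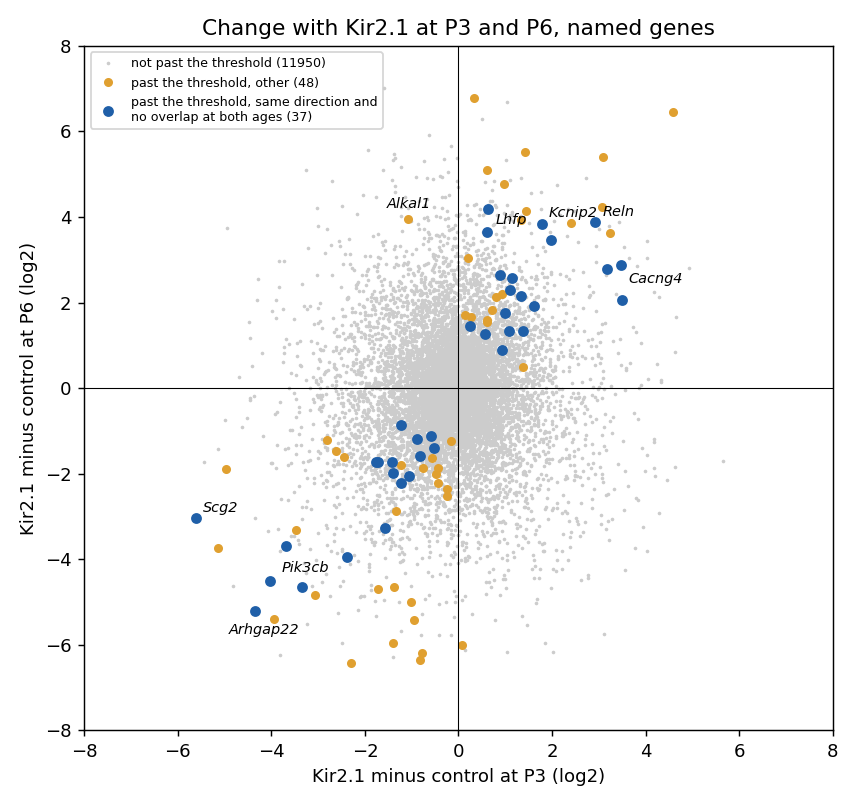
Each point is a named gene, with its Kir2.1 minus control change at P3 on the horizontal axis and at P6 on the vertical axis, both on the log2 scale. The 37 blue points lie at the lower left and upper right, 48 orange points passed the threshold in the mean of both ages without meeting the condition at each age, and the grey points are the other tested genes; r is 0.07 over all of them.

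Leaving out single pools moved the count of 85 by more than 1.5 times in 10 cases. It was 46, 37, 48 and 35 without P3 control pools 1, 2, 3 and 4, and 38, 38 and 43 without P3 Kir2.1 pools 1, 2 and 4. It was 41 without P6 control pool 4, 56 without P6 Kir2.1 pool 4 and 138 without P6 control pool 3. The count of 37 moved that far without P6 control pool 3, to 66. Scaling by the percentile over all probes put the median change over all genes at 0.03 in place of -0.10 and gave 73 higher and 42 lower genes, and the deposited value table gave 63 higher and 37 lower. Of the 37 genes, 13 passed the threshold without any single pool and under every other setting in which they were tested, 12 or 13 per gene, among them Reln, Kcnip2, Usp22, Vldlr, Pdcd6ip, Lhfp, Arhgap22, Pik3cb, Scg2, Efr3b, Cd200 and Sdc3.

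Scg2 encodes secretogranin II, a granin that is packed into dense-core vesicles and cut into the peptide secretoneurin. It lay at -2.52, -1.71, -3.07 and -2.25 in the P3 control pools and at -6.82, -7.09, -8.82 and -9.25 in the P3 Kir2.1 pools. At P6 the control pools lay at -0.14, -0.44, -1.30 and -0.83 and the Kir2.1 pools at -5.52, -3.31, -2.94 and -3.06. Every Kir2.1 pool was below every control pool of its age, and 2 of the 4 P3 Kir2.1 pools were not well above background. The mean change was -4.32 (SE 0.45, limma adjusted p = 0.00154), with -5.61 at P3 and -3.03 at P6, and it was the only called gene of 17 granins and dense-core vesicle genes tested. Of those 17, 7 were lower at both ages (41.2%, against 31.1% of all named genes) and 1 was higher at both (5.88% against 21.7%). Their median was -0.28 against -0.10 over all genes.

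Pik3cb encodes the beta catalytic subunit of class I phosphoinositide 3-kinase, which makes the membrane lipid that recruits Akt. Control pools lay at -4.54, -6.01, -5.98 and -5.17 at P3 and at -5.50, -4.39, -3.59 and -4.34 at P6. Kir2.1 pools lay at -9.71, -9.63, -9.05 and -9.40 at P3 and at -9.29, -10.06, -9.86 and -6.67 at P6. The probe was well above background in all 8 control pools and in 1 of 8 Kir2.1 pools, the fourth at P6, so at P3 it was at least 3.73-fold lower. This bound sets the mean of the control pools against the lowest signal that counts as well above background on each Kir2.1 array, or the probe's own where that is higher. The fitted mean change was -4.27 (SE 0.46, limma adjusted p = 0.0016). It was the only called gene among 16 tested class I kinases, phosphatases and Akt genes. Of the 16, 4 were lower (25%) and 2 higher (12.5%) at both ages, against 31.1% and 21.7% of all named genes. Their median was 0.08 against -0.10 over all genes.

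Arhgap22, a GTPase activating protein, lay at -5.56, -4.97, -4.26 and -4.86 in the P3 control pools and at -3.30, -2.0, -3.79 and -7.25 at P6. Kir2.1 pools lay at -9.61, -9.73, -8.76 and -8.89 at P3 and at -8.54, -10.14, -9.52 and -9.0 at P6. None of the 8 Kir2.1 pools was well above background and all 8 control pools were, so it was at least 5.34-fold lower at P3 and at least 14.2-fold lower at P6 (limma adjusted p = 0.00402 for the mean). Arhgap35, another GTPase activating protein, ran from -0.43 to -0.03 in P3 control and from -1.26 to -0.86 in P3 Kir2.1, and from -0.21 to 0.85 and from -2.07 to -0.82 at P6. Its mean change was -1.21 (SE 0.22, limma adjusted p = 0.028), a call that ended without 10 of the 16 pools, with an adjusted p of up to 0.064 without P3 control pool 4.

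Farp1, a guanine nucleotide exchange factor, lay at 0.15, 0.35, 0.54 and 0.01 in P3 control and at -1.17, -1.28, -0.65 and -0.75 in P3 Kir2.1. At P6 it lay at -0.01, -0.06, 0.17 and 0.27 in control and at -0.35, -0.56, -0.99 and -1.20 in Kir2.1 pools. It was bright in all pools, and its mean change was -1.05 (SE 0.17, limma adjusted p = 0.0158). A second probe of Farp1, well above background on 5 arrays, differed by -1.23 at P3 and 1.78 at P6, and the mean over both probes did not pass (adjusted p = 0.744).

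Efr3b, Cd200 and Sdc3 encode proteins of the plasma membrane and were well above background on every array. Efr3b, a membrane scaffold for a phosphatidylinositol kinase, lay at -1.33, -0.70, -1.55 and -1.17 in P3 control, at -2.69, -1.85, -2.47 and -3.30 in P3 Kir2.1, at -0.86, 0.15, 0.40 and -0.70 in P6 control and at -2.06, -2.57, -1.74 and -2.57 in P6 Kir2.1. It changed by -1.69 in the mean (SE 0.26, limma adjusted p = 0.0118). Cd200, a membrane glycoprotein whose receptor sits on microglia and other myeloid cells, lay at -0.53, -0.44, -0.61 and -0.83 in P3 control and at -1.85, -1.28, -1.63 and -1.90 in P3 Kir2.1. The P6 values were -0.79, -0.53, -0.51 and -0.45 in control and -3.10, -3.19, -1.90 and -2.31 in Kir2.1. The control groups of the 2 ages overlapped, and both Kir2.1 groups lay below them, with a mean change of -1.56 (SE 0.20, limma adjusted p = 0.00561).

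Sdc3, a syndecan, which is a heparan sulfate proteoglycan of axons, lay at 1.31, 1.30, 1.19 and 1.06 in P3 control and at 0.19, 0.44, 0.61 and 0.10 in P3 Kir2.1. At P6 it lay at 1.96, 1.78, 1.88 and 1.74 in control and at 1.26, 0.48, 0.39 and 0.44 in Kir2.1. Its changes, -0.88 at P3 and -1.20 at P6, were close to each other, and the mean change of -1.04 passed (SE 0.16, limma adjusted p = 0.0118).

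**Figure D2:**
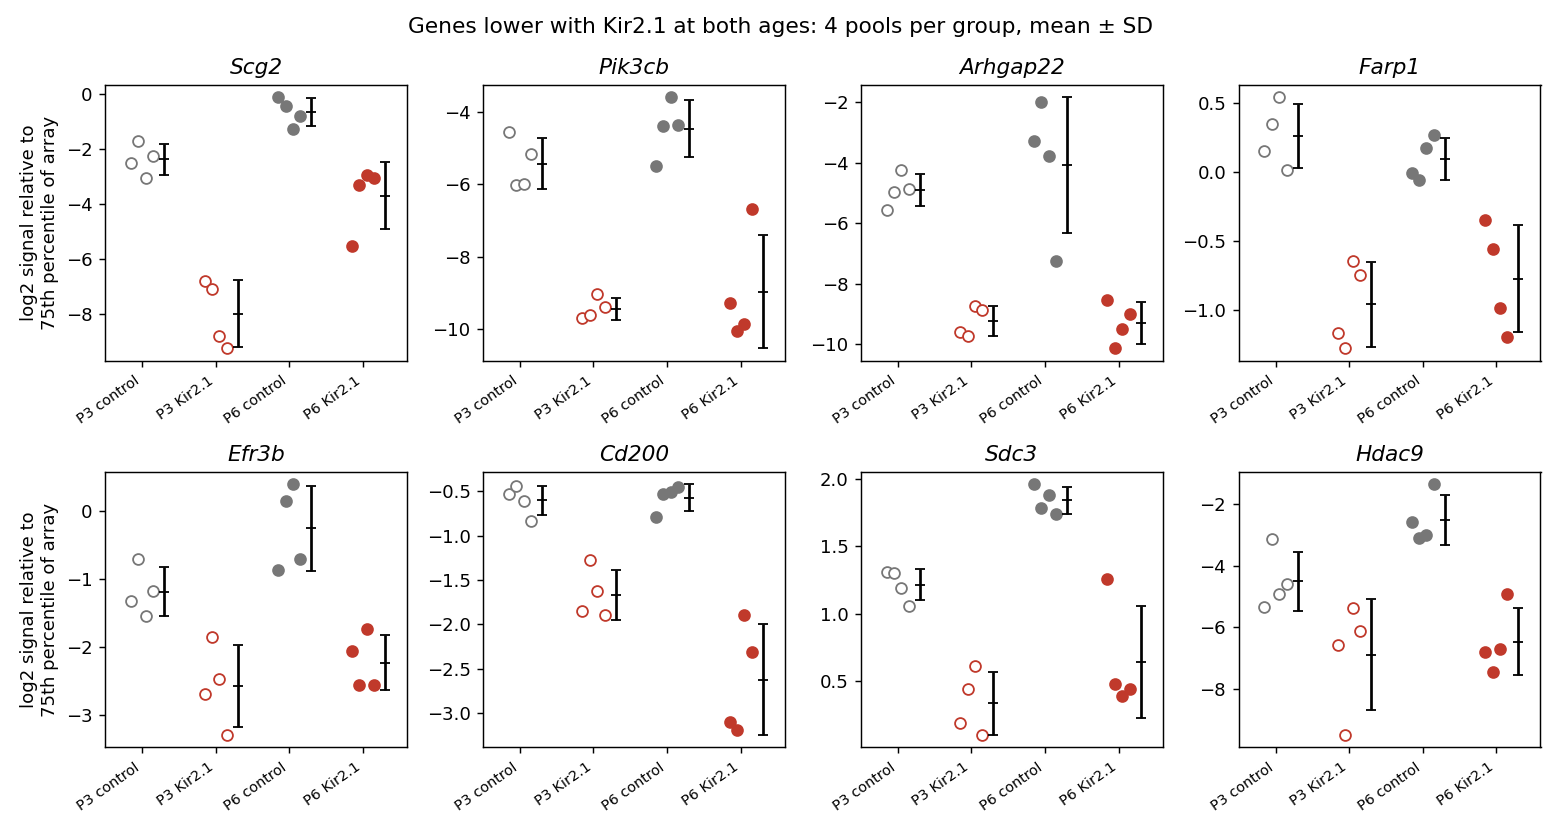
Log2 signal relative to the 75th percentile of the array for 8 genes lower with Kir2.1, with 1 point per pool (open at P3, filled at P6, grey for control and red for Kir2.1) and the mean ± SD of 4 pools as a black bar beside them. In each panel the red points of an age lie below its grey points, as in Scg2 at P3 (control -3.07 to -1.71, Kir2.1 -9.25 to -6.82).

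Other lower genes without overlap at both ages had dimmer probes or less even pools. Hdac9, a histone deacetylase, ran from -5.35 to -3.15 in P3 control and from -9.49 to -5.37 in P3 Kir2.1, and from -3.12 to -1.36 and from -7.45 to -4.93 at P6. Its mean change was -3.17 (SE 0.58, limma adjusted p = 0.0286), and the call ended without 7 of the 16 pools (up to 0.0661, without P3 control pool 2). Tjap1, a tight junction associated protein, changed by -3.35 at P3 and -4.64 at P6 (limma adjusted p = 0.0267), and its call ended without 7 pools (up to 0.0645, without P3 control pool 2). Fbxo46, an F-box protein, changed by -3.69 and -3.70 (limma adjusted p = 0.0385), and its call ended without 12 pools (up to 0.0821, without P3 Kir2.1 pool 4). Both were well above background in all control pools, and in 3 of the 8 Kir2.1 pools each.

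Tars, the threonyl-tRNA synthetase, ran from -1.44 to -0.64 in P3 control and from -4.03 to -1.67 in P3 Kir2.1, and from 0.11 to 0.55 and from -1.92 to -0.48 at P6. It changed by nearly the same amount at both ages, -1.77 and -1.72 (limma adjusted p = 0.0286), and its call ended without 7 pools (up to 0.0723, without P3 control pool 2). Derl1, a membrane protein of the endoplasmic reticulum that helps to remove misfolded proteins, changed by -1.22 and -2.22 (limma adjusted p = 0.0118). It passed without any single pool, and another probe of it, well above background on 13 arrays, differed by -1.25 at P3 and -0.06 at P6. Plek, which encodes pleckstrin, a protein of blood and myeloid cells, changed by -1.71 and -1.72 (limma adjusted p = 0.0362), and its call ended without 12 pools (up to 0.0723, without P3 control pool 2). It also ended without P6 control pools 1 and 3 together (0.0599), which had the highest microglia marker levels. Plek lay at -1.42 and -2.41 in these pools and at -1.80 and -2.18 in P6 control pools 2 and 4. A part of microglia in the Plek change was not tested. Zfp672 changed by -1.57 and -3.27 (limma adjusted p = 0.0176), while another probe of it differed by -1.98 and 3.12. Trcg1 was well above background in 0 of 4 P3 Kir2.1 pools and in all control pools, at least 2.20-fold lower at P3 (limma adjusted p = 0.0154 for the mean). Cnrip1, a protein that binds the cannabinoid receptor, and Iqcg were the remaining lower genes.

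Reln encodes reelin, a secreted glycoprotein that mitral cells make and that guides the layering and dendrites of neurons. It lay at -5.42, -4.93, -5.68 and -5.42 in the P3 control pools and at -2.40, -2.64, -2.36 and -2.37 in the P3 Kir2.1 pools. At P6 the control pools lay at -6.45, -7.60, -9.41 and -9.48 and the Kir2.1 pools at -5.43, -3.16, -5.93 and -2.88. The P3 groups were tight and far apart, while at P6 3 of 4 control pools were not well above background. The mean change was 3.40 (SE 0.52, limma adjusted p = 0.0118), with 2.92 at P3 and 3.89 at P6.

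Vldlr, a receptor of reelin, lay at -1.49, -2.57, -0.57 and -1.0 in P3 control and at 0.41, -0.47, -0.42 and -0.56 in P3 Kir2.1. The highest P3 control pool (-0.57) lay next to the lowest P3 Kir2.1 pool (-0.56). At P6 control pools lay at -4.29, -3.08, -3.08 and -2.71 and Kir2.1 pools at -0.36, -1.26, -0.86 and -0.41. The mean change was 1.86 (SE 0.32, limma adjusted p = 0.0181). Reln and Vldlr were the called genes of 15 tested genes of the reelin pathway, which also holds the other receptor Lrp8 and the adaptor Dab1. Of the 15, 6 were higher (40%) and 3 lower (20%) at both ages, against 21.7% and 31.1% of all named genes. Their median was 0.02 against -0.10 over all genes.

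Kcnip2 encodes an auxiliary subunit of Kv4 potassium channels, which carry a fast inactivating current in dendrites. It lay at -4.89, -4.19, -5.10 and -4.32 in P3 control and at -2.86, -2.59, -3.13 and -2.81 in P3 Kir2.1. The P6 values were -6.92, -5.90, -8.69 and -9.48 in control, where 2 pools were not well above background, and -4.25, -3.12, -4.57 and -3.75 in Kir2.1. All Kir2.1 pools lay above all control pools of their age, with a mean change of 2.80 (SE 0.44, limma adjusted p = 0.0123). It was the only called gene of 9 Kv4 channels and auxiliary subunits. Of the 9, 2 were higher (22.2%) and 4 lower (44.4%) at both ages, against 21.7% and 31.1% of all named genes. Their median was -0.62 against -0.10 over all genes. The pore subunits Kcnd2 and Kcnd3 and the other members did not pass.

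Cacng4, an auxiliary subunit of AMPA receptors in the family of calcium channel gamma subunits, lay at -9.50, -6.51, -5.59 and -6.63 in P3 control and at -2.11, -3.28, -5.28 and -3.63 in P3 Kir2.1. At P6 control pools lay at -6.99, -7.58, -9.47 and -8.27, 1 of them well above background, and Kir2.1 pools at -5.38, -4.51, -5.69 and -5.20. The mean change was 3.18 (SE 0.58, limma adjusted p = 0.028), and the call ended without 8 of the 16 pools (up to 0.0611, without P3 Kir2.1 pool 2). It was the only called gene of 21 sodium and calcium channel genes, a list that holds this gamma family, while the glutamate receptor list does not. Of the 21, 6 were higher (28.6%) and 8 lower (38.1%) at both ages, against 21.7% and 31.1% of all named genes. Syngr3, a synaptic vesicle protein, changed by 1.08 at P3 and 1.34 at P6 (limma adjusted p = 0.0431) as the only called gene of 39 presynaptic genes, where 0.706% of all named genes were called. Its call ended without 12 pools (up to 0.0898, without P3 control pool 2). Of the 39, 7 were higher (17.9%) and 13 lower (33.3%) at both ages, against 21.7% and 31.1% of all named genes.

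Rab39b, a neuronal Rab GTPase, lay at -6.62, -9.75, -6.95 and -9.31 in P3 control and at -4.78, -4.21, -5.12 and -5.82 in P3 Kir2.1. At P6 it was well above background in 0 of 4 control pools, which ran from -9.77 to -9.38, and in all 4 Kir2.1 pools, which ran from -7.57 to -6.12, so it was at least 1.61-fold higher there. The mean change of 2.98 passed (SE 0.45, limma adjusted p = 0.0116), also without any single pool, but not with normexp background correction (adjusted p = 0.194).

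Usp22 and Senp7, which act in ubiquitin and SUMO turnover, both rose. Usp22, a deubiquitinase of the SAGA complex, lay at -3.36, -3.92, -3.36 and -3.47 in P3 control and at -1.87, -1.96, -2.74 and -2.17 in P3 Kir2.1. The P6 values were -5.23, -4.67, -4.03 and -5.11 in control and -3.03, -2.89, -1.88 and -2.59 in Kir2.1, a mean change of 1.75 (SE 0.23, limma adjusted p = 0.00586). Senp7, a SUMO protease, had fitted changes of 1.97 and 3.46 (limma adjusted p = 0.00586). It was well above background in 0 of 4 P6 control pools, so the size at P6 is not measured. Another probe of Senp7, well above background on 6 arrays, differed by -0.61 and -1.19, and the mean over both probes did not pass (adjusted p = 0.601).

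Pdcd6ip encodes ALIX, a partner of the ESCRT machinery that shapes endosomal membranes. It lay at -3.86, -4.17, -3.52 and -3.58 in P3 control and at -3.13, -2.90, -3.23 and -3.36 in P3 Kir2.1, a change of 0.63. At P6 control pools lay at -9.06, -5.83, -6.51 and -7.98 and Kir2.1 pools at -3.25, -2.54, -3.99 and -2.84, a fitted change of 4.19 against controls of which 2 of 4 were well above background. The groups parted at both ages, and the mean change was 2.41 (SE 0.40, limma adjusted p = 0.0155), with an adjusted interaction p of 0.105. It was the only called gene of 27 ESCRT genes. Of the 27, 9 were higher (33.3%) and 4 lower (14.8%) at both ages, against 21.7% and 31.1% of all named genes. Their median was 0.33 against -0.10 over all genes. Another probe of Pdcd6ip, well above background on 4 arrays, differed by 1.65 at P3 and 0.68 at P6.

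Lhfp, a member of a family of tetraspan membrane proteins, lay at -0.75, -0.57, -0.83 and -0.51 in P3 control and at -0.08, -0.10, -0.22 and 0.16 in P3 Kir2.1. At P6 it lay at -4.90, -5.07, -3.77 and -4.90 in control and at -1.34, -0.70, -1.09 and -0.88 in Kir2.1. Its mean change of 2.13 had the lowest adjusted p of the named genes (SE 0.20, limma adjusted p = 0.000942). The direction was shared and the size was not, 0.61 at P3 against 3.66 at P6, and the difference between the ages passed its own test (3.05, SE 0.39, limma adjusted p = 0.00983).

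**Figure D3:**
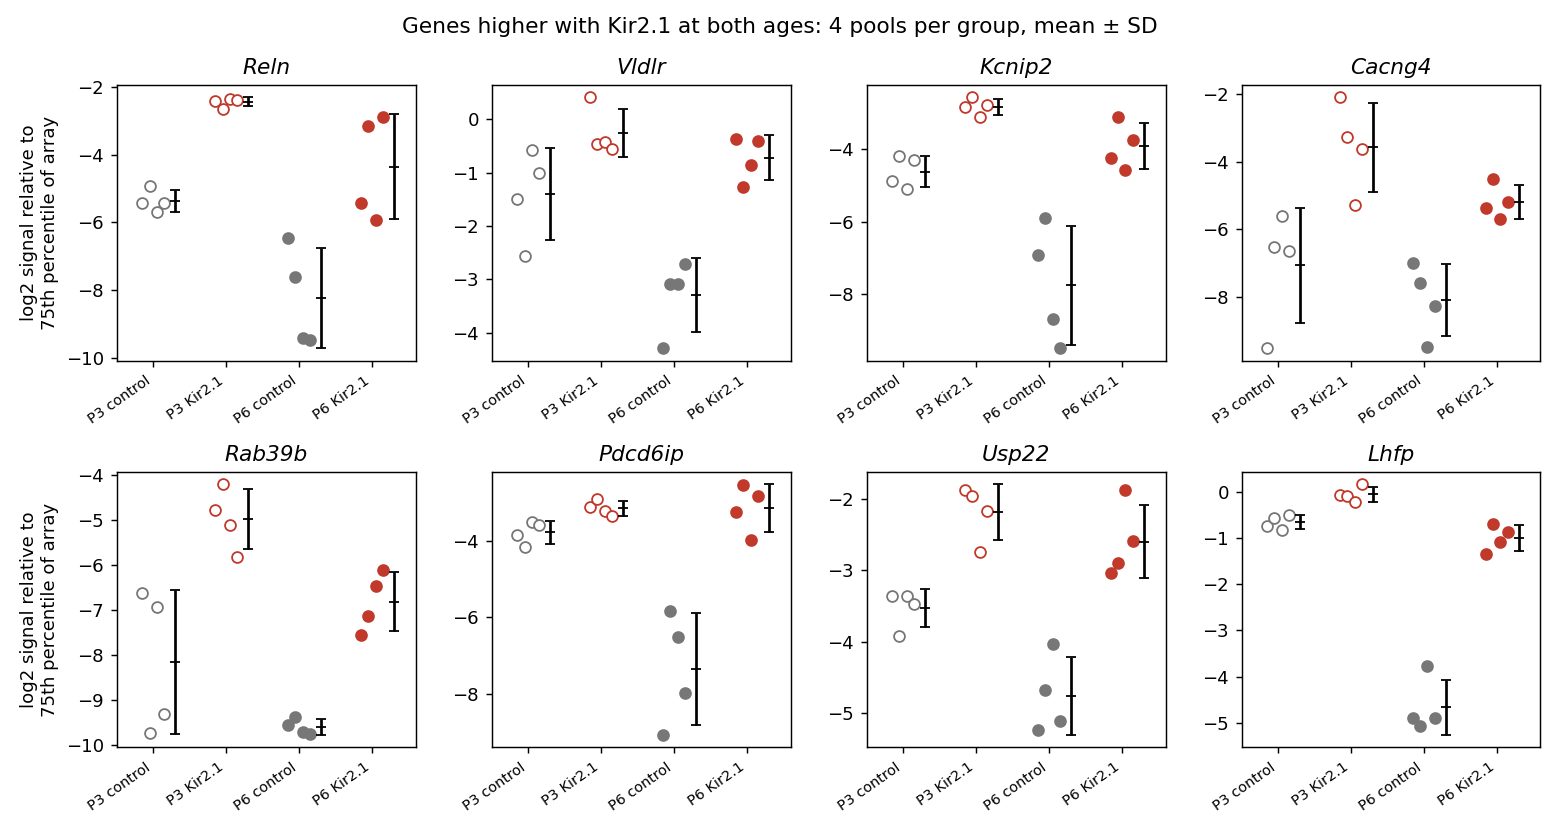
Log2 signal relative to the 75th percentile of the array for 8 genes higher with Kir2.1, drawn as for the lower genes with 1 point per pool and the mean ± SD of 4 pools. Red points lie above the grey points of their age in each panel, and in Lhfp the P6 controls (-5.07 to -3.77) lie far below the other 3 groups (-1.34 to 0.16).

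Other higher genes without overlap at both ages included Osbpl1a, an oxysterol-binding protein relative, which changed by 1.10 at P3 and 2.30 at P6 (limma adjusted p = 0.0194). A second probe of Osbpl1a, well above background on 15 arrays, differed by 0.44 and -0.60, and the mean over both did not pass (adjusted p = 0.0948). Pcdh7, a protocadherin, had fitted changes of 3.49 and 2.07 (limma adjusted p = 0.0325), with 1 of 4 control pools well above background at each age, so their sizes rest on values near background. Its 2 other probes differed by -2.19 and 0.43 and by -0.47 and -1.14. Its call ended without 8 pools (up to 0.0689, without P3 control pool 1). Bsg, which encodes basigin, a partner of lactate transporters, changed by 1.37 and 1.34 (limma adjusted p = 0.0453), and its call ended without 13 pools (up to 0.0953, without P3 control pool 1). The predicted gene Gm5779 changed by 0.94 and 0.90 (limma adjusted p = 0.0286) and lost its call without 8 pools (up to 0.0696, without P3 control pool 2). The call of 2700081O15Rik, which changed by 1.61 and 1.92 (limma adjusted p = 0.0385), ended without 11 pools (up to 0.0834, without P3 control pool 2). Zfr, Tomm6 and Atxn10 were the remaining higher genes. Of the 85 called genes, 14 had another probe well above background on at least 4 arrays, and 8 of these 16 probes had the same direction in the mean.

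Other settings ended some calls among the 37 genes. With normexp background correction, limma gave an adjusted p of 0.0543 for Cacng4, 0.346 for Pcdh7, 0.154 for Senp7, 0.181 for Trcg1 and 0.311 for Zfr. Averaging the probes of a gene gave 0.769 for Pcdh7, 0.627 for Zfp672 and 0.316 for Derl1. Scaling over all probes gave 0.0562 for Plek, 0.0845 for Iqcg and 0.0708 for Cnrip1, and the deposited value table gave 0.0537, 0.0869 and 0.0722 for the same genes. Testing without a filter on dim probes ended the calls of Pcdh7, 2700081O15Rik, Bsg, Syngr3, Zfr, Atxn10, Fbxo46, Hdac9, Plek and Iqcg, with adjusted p from 0.0501 for Hdac9 to 0.0802 for Bsg. Array weights ended that of 2700081O15Rik (0.0542).

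Another 46 genes passed in the mean with the same direction at both ages while the groups overlapped at one age, at P3 in 38 and at P6 in 8. Ntng1, which encodes netrin-G1 and is a marker of mitral cells, fell in the mean by 2.00 (SE 0.42, limma adjusted p = 0.0498), with -2.80 at P3 and -1.21 at P6. The call of Ntng1 ended without 13 of the 16 pools (up to 0.106, without P3 control pool 2), with scaling over all probes (0.0704), in the deposited value table (0.0688), without a filter (0.0901), in the mean over probes (0.051) and without P6 control pools 1 and 3 (0.0786). Id2, an inhibitor of basic helix-loop-helix factors, fell by 2.04 (SE 0.39, limma adjusted p = 0.0338), with -2.62 and -1.47. Its call ended without 10 pools (up to 0.0754, without P3 control pool 2), without a filter (0.0593) and without P6 control pools 1 and 3 (0.0641). Dpysl3, a protein of growing axons, fell in the mean by 0.71 (SE 0.14, limma adjusted p = 0.0374), with -0.17 at P3 and -1.24 at P6. The call of Dpysl3 ended without 12 pools (up to 0.0791, without P3 control pool 1), in the mean over probes (0.422), with scaling over all probes (0.0722), in the deposited value table (0.0764), without a filter (0.0635) and without P6 control pools 1 and 3 (0.0586). Mmd, a membrane protein, rose by 0.92 in the mean (limma adjusted p = 0.0308), with 0.13 and 1.72, a call that ended without 9 pools (up to 0.0755, without P3 control pool 2), without a filter (0.0524) and without P6 control pools 1 and 3 (0.0504). The fitted changes had opposite signs in 2 genes that passed. 1190005I06Rik differed by 0.08 at P3 and -6.01 at P6 (limma adjusted p = 0.0257 for the mean). Alkal1, a ligand of the ALK receptor, was well above background in 0 of 8 P3 pools, so its P3 value of -1.08 gives no direction. At P6 it was well above background in all 4 Kir2.1 pools and in 0 of 4 control pools, at least 4.30-fold higher. Alkal1 met the filter of at least 4 arrays only through these 4 pools, so its p-values are not independent of that selection. Its call in the mean (limma adjusted p = 0.0425) ended without 12 pools (up to 0.0851, without P3 Kir2.1 pool 4), under normexp (0.64), with a floor on dim signals (0.0538), without a filter (0.0767), with an intensity trend and robust prior in limma (0.0634) and without P6 control pools 1 and 3 (0.0901). Just inside the threshold lay Vkorc1l1 (adjusted p = 0.0481), Pcdhb16 and Ntng1 (both 0.0498), and just outside Fam81a, Dstn and Vps35 (all 0.0508).

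The difference between the ages itself passed for 9 of the 12035 named genes (0.0748%), against 1266 with an unadjusted p under 0.05. Lhfp and Alkal1 were the called ones among them, though Alkal1 met the filter only through its P6 Kir2.1 pools. The fitted changes of 8 of the 9 had opposite signs at the 2 ages, including Alkal1, whose P3 direction is not measured. An example is Smo, the transducer of hedgehog signals, which changed by 0.82 at P3 and -0.82 at P6 (interaction -1.64, SE 0.27, limma adjusted p = 0.0362) and so had a mean change of 0. Without single pools the count fell to 4 (P3 control pool 1 or 2, or P3 Kir2.1 pool 2) or 5 (P3 control pool 3, P3 Kir2.1 pool 4 or P6 control pool 4), and rose to 14 and 23 without P6 control pools 1 and 2.

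The gene lists showed few calls and some shared directions. Of 78 tested cytosolic ribosomal protein genes, 57 were higher at both ages (73.1%) and 3 lower (3.85%), where 21.7% and 31.1% of all named genes were. Their median change was 0.21 against -0.10, with 0.20 at P3 and 0.24 at P6, 0 passed the threshold in limma and 9 had an unadjusted p under 0.05. Rpl10a had a difference of 0.54 in the mean, and its second probe, also well above background on all 16 arrays, by 0.58. Under quantile normalization 39 of the 78 were higher at both ages and 5 lower, with a median of 0.11.

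Late activity response genes had a median of -0.72, with Scg2 as the only called member. Of 21, 11 were lower at both ages (52.4%) and 3 higher (14.3%), against 31.1% and 21.7% of all named genes. Penk of this list is also one of the interneuron markers. Glutamate receptor genes had a median of -0.45, with 11 of 18 lower at both ages (61.1%) and 2 higher (11.1%). Limma called 0 of them, and 5 had an unadjusted p under 0.05. Among them Grm7 differed by -3.65 at P3 and -1.81 at P6 (limma adjusted p = 0.0906), and Gria1 by 0.40 and 2.04 (limma adjusted p = 0.131). Both lists kept a median below 0 under every scaling tried. Among genes well above background on all 16 arrays, only 6 late activity genes remained, with a median of -0.32, 2 lower and 1 higher at both ages. Of glutamate receptor genes 10 remained, with a median of -0.34, 5 lower and 2 higher, where the median of all such genes was -0.09. Potassium and HCN channel genes had 9 of 26 lower and 1 higher at both ages, but their median was 0.03 at P3 and -1.26 at P6. Genes of axon and dendrite guidance had 17 of 50 lower and 3 higher at both ages with a median of -0.27. Neither list had a called gene in limma, and 3 and 5 had an unadjusted p under 0.05, where 1549 of all 12035 did. The shares lower at both ages, 34.6% and 34.0%, were near the 31.1% of all named genes.

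**Figure D4:**
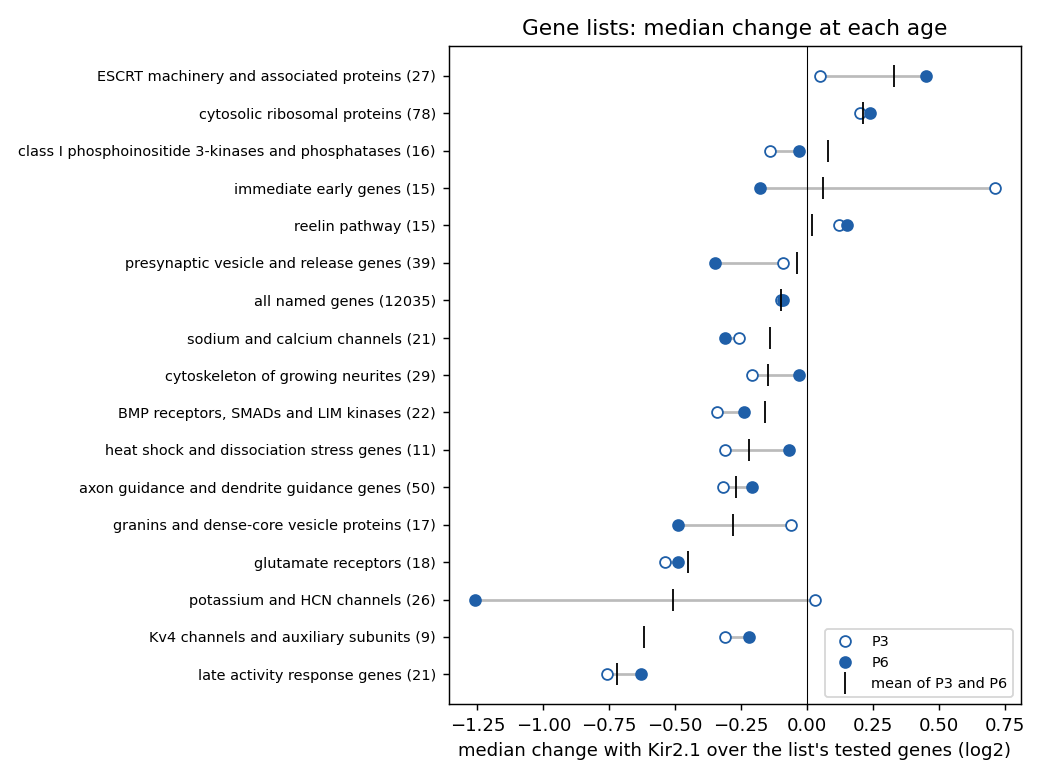
Median change with Kir2.1 on the log2 scale over the tested genes of each list at P3 (open), at P6 (filled) and in the mean of both (black tick), with the number of tested genes in brackets. Ribosomal protein genes lie above 0 at both ages (0.20 and 0.24) and late activity response genes below it (-0.76 and -0.63), while potassium and HCN channel genes differ between the ages.

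Immediate early genes, the first to respond to activity, did not pass in any member. Of 15 tested, 3 were higher and 2 lower at both ages, with a median of 0.71 at P3 and -0.18 at P6. An unadjusted p under 0.05 was reached by 1, Ier5. It differed by 4.05 at P3, without overlap, and by 0.21 at P6 (limma adjusted p = 0.296 for the mean). Its second probe, well above background on 5 arrays, differed by 4.64 and 0.27. Fos differed by 0.44 in the mean (SE 1.26), Egr1 by -1.35 (SE 1.41), Npas4 by 0.43 (SE 1.24), Arc by -1.17 (SE 1.33) and Nr4a1 by -0.52 (SE 0.41), all with a limma adjusted p of at least 0.613. At P3 and P6 Npas4 differed by 2.46 and -1.59, Arc by 0.71 and -3.04, Fos by 0.78 and 0.10, and Egr1 by -1.39 and -1.31. The spread of these genes between pools was wide, and the mean changes of Fos and Npas4 turned sign without P3 Kir2.1 pool 4 (-0.34 and -0.28). Of 22 BMP receptor, SMAD and LIM kinase genes, 10 were lower and 6 higher at both ages, and Id2 was called. Bmpr2, a BMP receptor with a probe well above background on 6 arrays, differed by 0.61 (SE 1.13, limma adjusted p = 0.85), with -0.25 under normexp and -0.09 with a floor on dim signals. Among the 11 heat shock and dissociation stress genes 0 were called by limma and 2 had an unadjusted p under 0.05, with 6 lower and 1 higher at both ages. Of 29 cytoskeleton genes of growing neurites 14 were lower and 5 higher at both ages, and Dpysl3 was called. For these genes scaling over all probes gave 5 lower and 6 higher. Under the main scaling 31.1% of all named genes were lower and 21.7% higher at both ages.

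The mean level over 15 tested markers of mitral and tufted cells was -1.43 to -0.95 (control) and -1.09 to -0.86 (Kir2.1) at P3. At P6 it was -1.43 to -0.87 (control) and -1.32 to -0.29 (Kir2.1). Of the 15, 13 to 15 were well above background in a P6 control pool, and 14 to 15 in a pool of the other groups. Higher at both ages were 8 of the 15 and lower 3, against 21.7% and 31.1% of all named genes. The 2 called ones moved in opposite ways, Reln up and Ntng1 down. Cdhr1, by which the cells were kept, differed by 0.05 in the mean (SE 0.20, limma adjusted p = 0.939), with -0.03 under quantile normalization. This mean joined -0.56 at P3 and 0.66 at P6 (limma adjusted p of 0.795 and 0.235, interaction adjusted p = 0.255). Markers of other cell types moved with the groups at P6 in part. The mean of 14 interneuron markers lay between -3.78 and -1.40 in P6 control and between -6.58 and -3.89 in P6 Kir2.1, without overlap, and 7 of the 14 were lower at both ages and 0 higher. Of the 14, 12 to 14 were well above background in a P6 control pool and 8 to 12 in a P6 Kir2.1 pool. The P3 groups overlapped, at -6.82 to -4.93 and -5.84 to -5.07. The mean of 7 microglia markers lay between -4.55 and -1.51 in P6 control and between -5.67 and -4.62 in P6 Kir2.1, and the P3 groups overlapped here too. The mean of 11 vascular and blood markers was higher with Kir2.1 at P3, at -7.52 to -6.56 against -6.16 to -5.32, and overlapped at P6. No marker of these lists other than those of mitral cells was called. Their part in the results was not tested. P6 control pools 1 and 3 had the highest microglia levels (-1.51 and -1.93), and without both of them 122 genes passed, 82 higher and 40 lower, of which 56 were among the 85. Of the 37 genes 32 still passed, and 5 did not, namely Plek, 2700081O15Rik, Fbxo46, Tars and Atxn10, with limma adjusted p from 0.0599 for Plek to 0.0823 for Fbxo46.

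**Figure D5:**
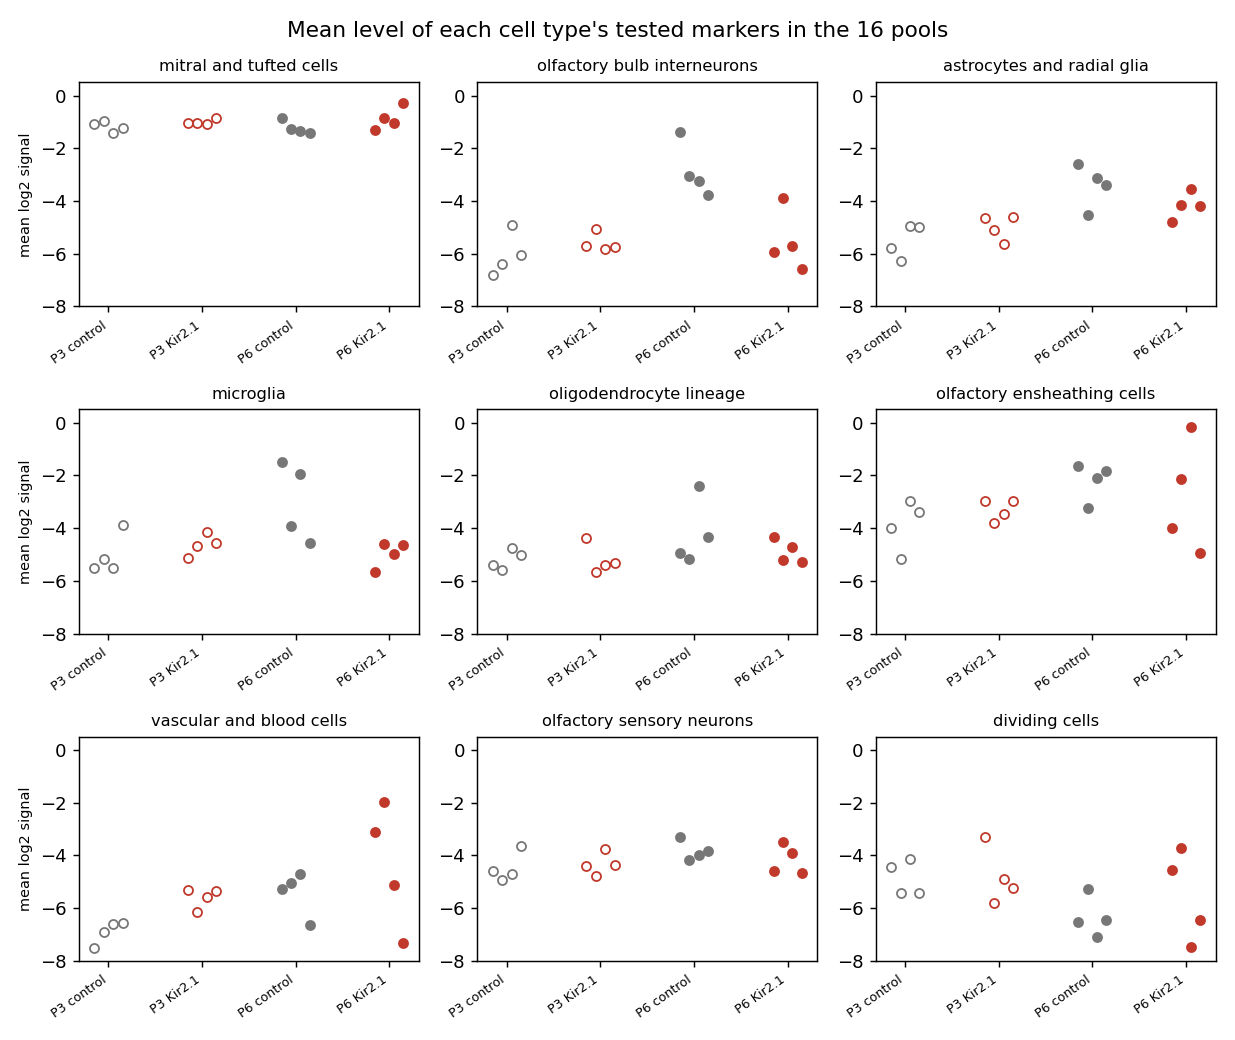
Mean log2 signal of the tested markers of 9 cell types in the 16 pools, with 1 point per pool (open at P3, filled at P6, grey for control and red for Kir2.1). Mitral and tufted markers lie between -1.43 and -0.29 in all groups, and the P6 control pools lie above the P6 Kir2.1 pools in interneuron and microglia markers.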

How the data were processed

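The authors' deposited scanner files hold, per the file headers, the processed Cy3 signal of 1-colour Agilent arrays read with Agilent Feature Extraction 10.7.3.1 (per the submitters' processing notes), a background-subtracted intensity. The series' deposited value table holds the same signal as a ratio to the 75th percentile of the gene spots on that array (0.997 to 1.00 times that ratio when recomputed). Control spots and outlier spots were left out and spots of a probe averaged. Log2 signals were scaled by the 75th percentile over the 12103 probes well above background on all 16 arrays. Probes well above background on at least 4 arrays were tested, and a gene was represented by its brightest such probe on average (21070 features, 12035 named through RefSeq accessions, GRCm38.p6). All arrays were fitted with limma 3.58.1 in R 4.3.3 (lmFit, eBayes) with 4 group means and no other term. The adjusted p is Benjamini-Hochberg over all features. The normexp alternative used median spot signals in place of mean ones.

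Genes named were the 14 higher and 14 lower whose smaller change was largest among those past the threshold without overlap at both ages, called members of the gene lists or up to 2 with the lowest p, 16 genes named by symbol, called genes with opposite directions and called genes with the lowest interaction p. Other genes named, the remaining ones without overlap among them, were chosen after their values were seen. Members and lists were chosen with earlier results of these data known. On simulated data for the mean of both ages (21070 features) the fit recovered 14.9%, 34.3% and 81.8% of changes of 1, 2 and 4 log2 units, and 8.42% of its calls were false. The simulation drew independent normal noise with the fitted SD of each feature and put the same change at both ages. It held no floor for dim signals, so these rates need not hold for the real calls. The number of arrays limits the precision. Results for some genes and gene lists are not reported here.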

Additional observations from a re-analysis of the deposited data

Results flagged for a closer look

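Among the 73 genes named by rule, 27 of 292 groups of 4 pools had a pool that stood apart from the other 3 by Dixon's criterion, where chance gives about 1 in 20. Among genes past the threshold, these were as follows. Reln lay at -2.64 in P3 Kir2.1 pool 2, below the other 3 pools of its group (-2.40 to -2.36). In P3 control pool 2, Pcdh7 lay at -6.33, with the other 3 pools below at -9.33 to -9.0. P6 control pool 2 stood apart for Bsg, at -4.19 against -2.60 to -2.35 in the other 3. Vldlr lay at 0.41 in P3 Kir2.1 pool 1, above the other 3 pools of its group (-0.56 to -0.42). In P6 Kir2.1 pool 1, Scg2 lay at -5.52, with the other 3 pools above at -3.31 to -2.94. P6 Kir2.1 pool 1 stood apart for Sdc3, at 1.26 against 0.39 to 0.48 in the other 3. Ntng1 lay at -3.62 in P3 Kir2.1 pool 2, above the other 3 pools of its group (-4.69 to -4.62). Lhfp lay at -3.77 in P6 control pool 3, above the other 3 pools of its group (-5.07 to -4.90). 1190005I06Rik lay at -1.67 in P3 control pool 4, above the other 3 pools of its group (-3.54 to -3.29). In P6 Kir2.1 pool 4, 1190005I06Rik lay at -7.43, with the other 3 pools below at -10.09 to -9.79. P6 control pool 1 stood apart for Mmd, at -3.43 against -3.55 in each of the other 3. Scg2, Reln, Vldlr, Sdc3 and Lhfp passed without any single pool.

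Among genes that did not pass, these were as follows. Egr4 lay at -6.74 in P3 control pool 3, above the other 3 pools of its group (-9.36 to -8.97). In P3 Kir2.1 pool 4, Egr4 lay at -2.51, with the other 3 pools below at -9.50 to -8.87. P6 control pool 1 stood apart for Egr4, at -3.83 against -9.31 to -8.94 in the other 3. In P3 Kir2.1 pool 2, Penk lay at -7.13, with the other 3 pools below at -8.89 to -8.88. P6 Kir2.1 pool 3 stood apart for Apoe, at 2.68 against 0.95 to 1.16 in the other 3. C1qc lay at -4.11 in P3 control pool 4, above the other 3 pools of its group (-9.55 to -9.34). In P6 control pool 3, Csf1r lay at -0.34, with the other 3 pools below at -1.71 to -1.59. P3 control pool 4 stood apart for S100b, at -5.71 against -9.32 to -9.28 in the other 3. Cngb1 lay at -3.28 in P6 control pool 3, below the other 3 pools of its group (-2.70 to -2.68). In P6 Kir2.1 pool 2, Cngb1 lay at -2.45, with the other 3 pools above at -1.84 to -1.75. P6 Kir2.1 pool 2 stood apart for Ccnb2, at -4.05 against -9.80 to -9.54 in the other 3. In P3 control pool 3, Bmpr2 lay at -5.88, with the other 3 pools below at -9.56 to -9.13. P6 control pool 3 stood apart for Bmpr2, at -3.14 against -10.04 to -8.97 in the other 3. Fos lay at -3.08 in P3 Kir2.1 pool 4, above the other 3 pools of its group (-9.54 to -8.99). In P3 control pool 3, Arc lay at -4.68, with the other 3 pools below at -9.49 to -9.07. P3 Kir2.1 pool 4 stood apart for Nr4a1, at -4.30 against -5.46 to -5.29 in the other 3.

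For 2 genes the change with Kir2.1 differed between the ages by a test of the difference itself in limma. Lhfp changed by 0.61 at P3 and 3.66 at P6, a difference of 3.05 (SE 0.39, limma adjusted p = 0.00983). Alkal1 had a fitted difference of 5.02 between the ages (SE 0.59, limma adjusted p = 0.00983). It was well above background in the 4 P6 Kir2.1 pools and in none of the other 12 pools. It thus met the filter of at least 4 arrays only through the group where it was high, and its p-value is not independent of that filter. The size of the difference between the ages and the direction at P3 are not measured, and the bound at P6 is at least 4.30-fold higher with Kir2.1.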

How the results depend on the processing

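Against 85 genes in the mean of both ages, 151 passed with normexp, 143 among genes well above background on all 16 arrays, 176 with an intensity trend and robust prior, and 40 without a filter. Without single pools it was 35 to 138. The 37 genes without overlap at both ages became 56 with the trend and robust prior, 56 without P6 control pools 1 and 3 (chosen after seeing the data), and 26 to 66 without single pools. The 9 genes that differed between the ages became 34 with normexp, 15 and 58 with the filter at 8 and 16 arrays, 58 with the trend and robust prior, 18 without P6 control pools 1 and 3, and 4 to 23 without single pools. With replicate number as a block the counts were 39, 22 and 5. Pools of the same number did not deviate together (correlations of -0.03 to 0.03), so the numbers pair nothing. The other settings kept these counts within 1.5 times. Directions turned for 5 genes, none past the threshold: Hspa8 (0.32, mean over probes), Cdhr1 (-0.03, quantile; -0.08 without P6 control pools 1 and 3; -0.04 to 0.13 without single pools), Bmpr2 (-0.25, normexp; -0.09, floor), and without single pools Fos (-0.34 to 0.93) and Npas4 (-0.28 to 1.24). The cause was not tested, except that filters change the number of genes tested. Dim probes limit sizes in both directions: fitted changes against a group near background are not measured sizes.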

Other observations

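Several called genes outside the groups above were seen only after their values were known. Both potassium-dependent sodium-calcium exchangers among the called genes were lower: Slc24a2 by -2.29 at P3 and -6.42 at P6 (limma adjusted p = 0.0176 for the mean), and Slc24a3 by -0.24 and -2.52 (0.0453), with overlapping P3 groups in both. Acan, which encodes aggrecan, a proteoglycan of the extracellular matrix, changed by -2.45 at P3 and -1.61 at P6 (0.0338). Inpp5j, a phosphoinositide phosphatase, changed by -4.96 and -1.90 (0.0433). Igfbp5, a binding protein of insulin-like growth factors, changed by -0.44 and -1.88 (0.00639). Lgi2, a secreted leucine-rich repeat protein, changed by -3.07 and -4.84 (0.0305). At P3, 3 of 4 control pools and 0 of 4 Kir2.1 pools of Lgi2 were well above background. The groups overlapped at P3 in Igfbp5 and Lgi2, and at P6 in Acan and Inpp5j. Some Kir2.1 pools of Slc24a2, Acan, Inpp5j and Lgi2 were not well above background, so these sizes are not exact.

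Among higher genes, Eif3e, a subunit of a translation initiation factor, changed by 0.81 and 2.13 (limma adjusted p = 0.00966), Psmd8, a proteasome subunit, by 0.71 and 1.82 (0.0386), and Snrpn, a splicing protein from an imprinted locus, by 0.61 and 1.60 (0.0362). These 3 were well above background on all 16 arrays, and their P3 groups overlapped. Of 2 other probes of Snrpn, the one well above background on all arrays differed by 1.02 and 0.72 and the one on 10 arrays by -1.83 and 0.45. Stk32b, a kinase, changed by 1.34 and 3.92 (0.00639), at least 4.98-fold at P6. The other settings were not tabulated for the genes of this and the preceding paragraph.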
